A study of Mus musculus with 8 samples.

Results

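Tongue epithelial cells of mice that carried both the HPV16 E6-E7 and the YAP1S127A transgenes (EY) were compared with those of control littermates (N), 15 days after induction. A barcode was kept as an epithelial cell if it held 1000 to 5500 genes, at most 30000 UMIs (unique molecular identifiers, each standing for a captured transcript), at most 7% mitochondrial UMIs, no UMI of the leukocyte gene Ptprc, and at least 0.5% of its UMIs from the keratins Krt5, Krt14, Krt15, Krt13 and Krt6a. This gate kept 6059 of the 19845 barcodes of the 4 libraries, with 3447 cells in N1, 415 in N2, 170 in EY1 and 2027 in EY2. Over all 8 libraries of the series it kept 12957 of 42550 barcodes. UMIs were summed per library, levels are given as CPM (UMI counts scaled to the TMM-normalised total of the gated cells), and the libraries of a group are always listed in the order 1, 2.

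All mice carried Krt14-CreERT, a tamoxifen-activated Cre recombinase under the basal keratin promoter, and LSL-rtTA, the doxycycline-dependent transactivator behind a floxed stop cassette. By the study's methods all also carried tetON_H2B-GFP, a nuclear reporter. EY mice added tetON_E6-E7 and tetON_YAP1S127A, N mice had neither, and the groups E and Y, used here for the spread and for side-by-side values, had E6-E7 alone or YAP1S127A alone. The female-specific RNA Xist stood at 612 CPM in Y2 and below 1 CPM in every other library. The chromosome Y gene Ddx3y stood at 0.0503 CPM in Y2 and at 39.5 CPM in Y1, so the Y libraries differed in sex. Tamoxifen was injected into the tongues of littermates, aged 8 to 16 weeks by the methods, and doxycycline was given in the chow from the first tamoxifen day. Cells were sorted by size and viability and not for the reporter, so gated cells include cells in which the transgenes may not have been switched on. Recombination was limited to cells that used the Krt14 promoter. The title of N2 holds a pair of animal numbers, so that library may pool mice.

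YAP is the coactivator at the end of the Hippo kinase cascade. The kinases LATS1 and LATS2 phosphorylate it and keep it in the cytoplasm, and the S127A change removes a main phosphorylation site, so that the protein enters the nucleus and works with the TEAD factors on genes of growth and of cell shape. HPV16 E6 promotes the breakdown of p53 and E7 inactivates the RB family, which frees E2F factors to drive the genes of DNA replication. Tongue epithelium renews itself from a basal layer of Krt14-positive progenitors, whose progeny either cornify or build the filiform papillae with their own set of keratins.

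The gated cells held 49827744 UMIs in N1, 8746483 in N2, 2454816 in EY1 and 37020044 in EY2, with medians of 13656, 22942, 13534.5 and 18451 UMIs per cell. The gate took 81.3% and 22.4% of the cells within the limits in N and 9.35% and 65.1% in EY. The epithelial markers of a fixed list of 11 genes summed to 24896 to 29002 CPM in the 4 libraries, with none at 0. The sums of 9 pan-leukocyte markers were 10.8 and 21.8 CPM in N and 167 and 42.9 CPM in EY, and those of 11 neutrophil markers were 5.02 and 23.5 CPM in N and 2259 and 670 CPM in EY. Most of the latter was S100a8 and S100a9. Other neutrophil genes were higher in EY too. Retnlg stood at 0.119 and 0.357 CPM in N and at 141 and 25.7 CPM in EY. Ngp stood at 0.0198 and 0.357 CPM in N and at 37.4 and 15.5 CPM in EY. Mmp8, Camp and Hdc were also called higher, while Csf3r, Cxcr2 and Mmp9 were not called. The granulocyte receptor gene Csf3r stood at 0.198 and 0.238 CPM in N and at 2.03 and 0.0284 CPM in EY. Gland or duct markers summed to 125 and 1014 CPM in N and 412 and 141 CPM in EY, and haemoglobin and Alas2 transcripts to 161 and 709 CPM in N and 392 and 1.84 CPM in EY. The other marker lists, for monocytes, dendritic cells, T or NK cells, B cells, endothelium, muscle, melanocytes or Schwann cells and taste or Merkel cells, reached at most 199 CPM in a library. That highest sum was of monocyte or macrophage markers in EY1, beside 21.7 CPM in EY2 and 21.9 and 18.6 CPM in N. Fibroblast markers summed to 1088 and 1278 CPM in N and 253 and 29.8 CPM in EY, nearly all of it Dcn, a matrix proteoglycan gene, and the collagen genes Col1a1 and Col3a1 stayed below 3 CPM. Library pairs of the series shared 2 to 19 barcodes. The p-values measure the spread between 2 libraries a group, and in sums of this kind fewer cells of a type and less RNA per cell cannot be told apart.

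Of 13555 genes tested, 2550 (18.8%) were called at an adjusted p under 0.05 by edgeR's quasi-likelihood test. They split into 1262 genes higher in EY (9.31%) and 1288 lower (9.5%). Rises had a median log2 fold change of 1.27 and falls of -1.38, and 806 of the rises and 915 of the falls were at least 2-fold. The median over all genes tested was -0.05. The groups did not overlap for 62.6% of all genes tested, so that absence of overlap is common here and is no mark of a called gene. The self-test recovered 11.1% of simulated 2-fold changes and 50.5% of simulated 4-fold changes, so changes of 2-fold can be missed. It changed only 99 of 13239 genes at each size, far fewer than were called in the data. The adjusted threshold was therefore stricter in the simulation, and its shares do not measure what was missed here.

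The number of calls depended on single libraries. Without N1 only 5 of the 2550 genes were called again, without EY2 25, without N2 261, and without EY1, the library of 170 cells, 2344. Each of these fits left an arm with a single library, whose spread was assumed to be that of the other groups. In every fit without 1 N or EY library 2548 of the 2550 genes kept their sign. This largely follows from the calls themselves and is no separate support. Of the 1262 rises 1260, and all 1288 falls, had no overlap between the groups' libraries. Among cells with no UMI of 8 cycling genes, which left 31 cells in EY1 and 81 in EY2, 522 were called again and 51 turned their sign. Libraries of the 8 thinned to the smallest total gave 712 genes higher and 511 lower. Fits of N and EY alone gave 456 higher and 297 lower. The same held for the gene lists described here, of which 4 of 35 had a called member without N1, 9 without EY2, 23 without N2 and 34 without EY1. Among genes described below as changed, Rfng, Plec, Timp2, Nrg1, Gstm1 and Clock were called in only 6 to 9 of 21 alternatives. Hmga2 was called in 8 of the 17 in which it was tested.

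**Figure D1:**
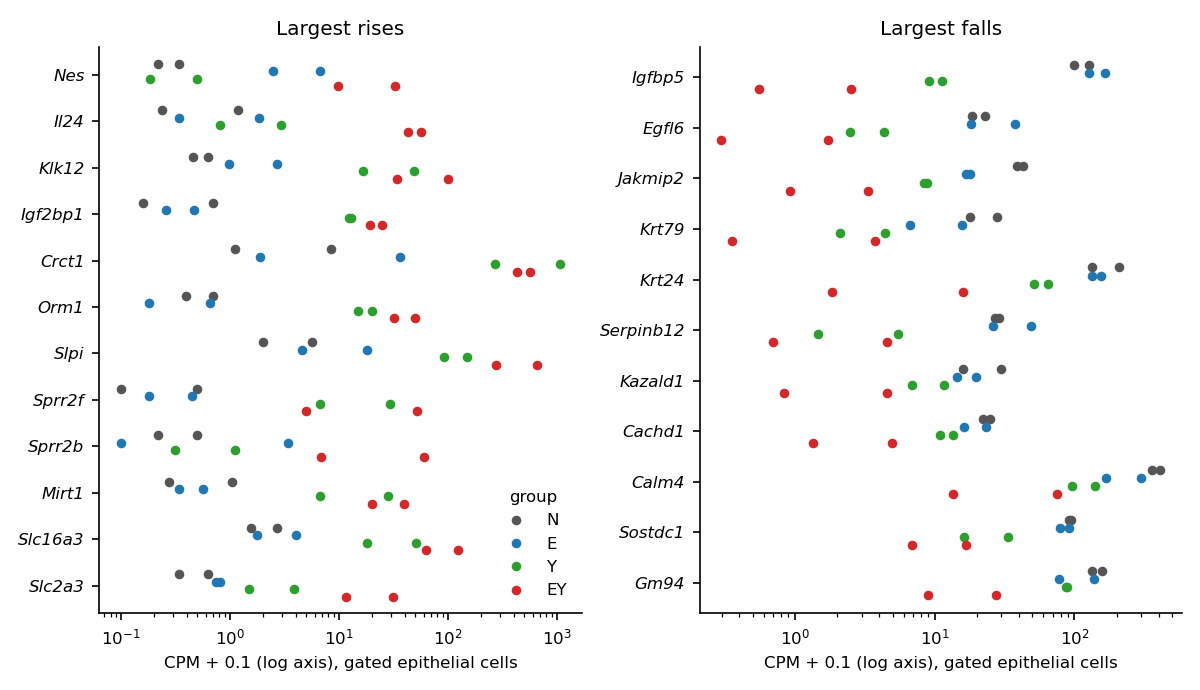
Levels in gated epithelial cells of the 12 genes with the largest called rises and 11 of the 12 with the largest called falls in EY against N, among genes within limits on level, overlap and presence in Ptprc-positive cells. Each point is 1 library (CPM + 0.1, log axis), coloured by group. The EY points lie to the right of the N points for all 12 rises and to the left for all 11 falls.

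The genes named here were the largest calls with at least 20 CPM in the higher group, no overlap, and a level in Ptprc-positive cells at most 5 times that in gated cells, which leaves out neutrophil genes. Among these the rises joined a filament gene, a cytokine, a protease, an RNA-binding protein and genes of the cornified layer and of secretion. Nes (chr3:87971078-87980451, + strand, GRCm38), the intermediate filament gene nestin, stood at 0.119 and 0.238 CPM in N and at 9.75 and 32.3 CPM in EY. Both EY libraries were above both N libraries, with a log2 fold change of 7.25 (SE 0.98, edgeR adjusted p = 0.00899), and the N values rest on 6 and 2 UMIs. Il24 (chr1:130882074-130887454, - strand), a cytokine of the IL-10 family, rose from 0.138 and 1.07 CPM to 42.7 and 56.5 CPM (log2 fold change 7.16, SE 1.13, edgeR adjusted p = 0.0124). Ptprc-positive cells of EY held 7.89 CPM of Il24, below the level in the gated cells. Klk12, a secreted serine protease, rose from 0.533 and 0.357 CPM to 33.7 and 99.4 CPM (log2 fold change 7.10, SE 0.92). Igf2bp1 (chr11:95957163-96005940, - strand), an RNA-binding protein of embryonic tissues, rose from 0.0593 and 0.596 CPM to 19.1 and 24.8 CPM (log2 fold change 7.07, SE 0.73, edgeR adjusted p = 0.00672). The N level of Igf2bp1 was set by 3 and 5 UMIs. Crct1, a small cysteine-rich protein of the cornified envelope locus, rose from 1.01 and 8.34 CPM to 429 and 566 CPM (log2 fold change 7.0, SE 1.70, edgeR adjusted p = 0.0321).

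The next largest rises were in secreted proteins and in transporters of sugar and lactate. Orm1, an acute phase plasma protein, rose from 0.296 and 0.596 CPM to 32.1 and 49.9 CPM (log2 fold change 6.83, SE 0.59, edgeR adjusted p = 0.00672). Slpi, an inhibitor of neutrophil elastase, rose from 5.55 and 1.91 CPM to 277 and 651 CPM (log2 fold change 6.82, SE 0.88). The Ptprc-positive cells of EY held 2316 CPM of Slpi, beside a mean of 464 CPM in the gated cells, so that Slpi lay just within the limit of 5 times. Mirt1, a long noncoding RNA, rose from 0.178 and 0.953 CPM to 19.9 and 39.1 CPM. Slc16a3, the lactate exporter MCT4, rose from 1.44 and 2.62 CPM to 62.2 and 124 CPM (log2 fold change 5.69, SE 0.73, edgeR adjusted p = 0.00867). Slc2a3, the glucose transporter GLUT3, rose from 0.533 and 0.238 CPM to 11.4 and 30.9 CPM (log2 fold change 5.58, SE 0.71). Ptprc-positive cells of EY held 253 CPM of Slc16a3 and 42.8 CPM of Slc2a3, more than the gated cells. The small proline-rich genes Sprr2f and Sprr2b complete the 12, at 4.88 and 52 CPM and at 60.1 and 6.78 CPM in EY against at most 0.395 CPM in an N library. EY2 was the higher library for Sprr2f and EY1 for Sprr2b, and Sprr2 copies are alike, so that how reads were split between them is uncertain.

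Among the falls, genes of the resting progenitor and of the papilla led. Igfbp5 (chr1:72857932-72874884, - strand), which binds insulin-like growth factors, stood at 127 and 98.8 CPM in N and at 2.44 and 0.454 CPM in EY. Both EY libraries were far below both N libraries, with a log2 fold change of -7.38 (SE 0.56, edgeR adjusted p = 0.0065), and Igfbp5 was called in all 21 alternative fits. Over these fits its log2 fold change ran from -8.40 to -3.39, the smallest fall being in cells with no cycling UMI. Keratin-low cells, within the limits but with no Ptprc UMI and under 0.5% of UMIs from the gate keratins, held 874 CPM of Igfbp5 in N and 25.4 CPM in EY. Igfbp5 was thus higher outside the gate than inside it in N, and whether such cells add to the gated level was not tested. Egfl6, a basement membrane protein that attaches to integrins, fell from 18.3 and 22.8 CPM to 1.63 and 0.199 CPM (log2 fold change -5.88, SE 0.83). Jakmip2, a coiled-coil protein, fell from 42.7 and 38.6 CPM to 3.25 and 0.823 CPM (log2 fold change -5.07, SE 0.48). The serpin gene Serpinb12 fell from 26.9 and 28.9 CPM to 4.47 and 0.596 CPM. In each of these EY1 lay closer to N than EY2 did.

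The remaining large falls kept that order of the EY libraries. Kazald1, a secreted protein with an IGF-binding motif, fell from 29.7 and 15.8 CPM to 4.47 and 0.738 CPM. Cachd1, a calcium channel subunit relative, fell from 22.2 and 24.9 CPM to 4.88 and 1.25 CPM (log2 fold change -3.55, SE 0.55). Calm4, a calmodulin-like protein of epidermis, fell from 360 and 409 CPM to 75.2 and 13.4 CPM. Gm94 fell from 132 and 157 CPM to 27.2 and 8.88 CPM (log2 fold change -3.18, SE 0.52, edgeR adjusted p = 0.0133). Sostdc1, a secreted antagonist of BMP and Wnt signals, fell from 91.4 and 94 CPM to 16.7 and 6.78 CPM (log2 fold change -3.19, SE 0.48). The plot of the largest rises and falls shows these values beside those of E and Y.

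**Figure D2:**
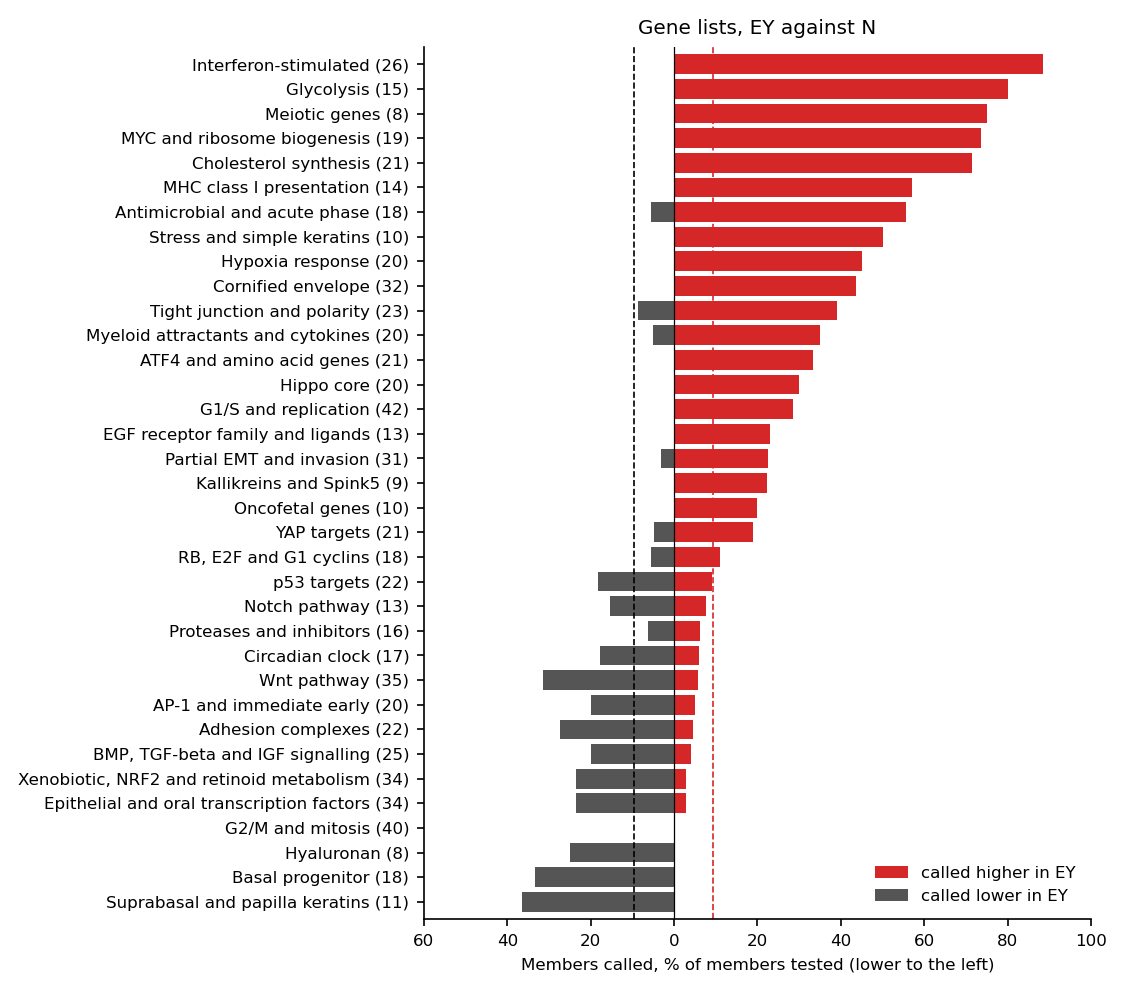
Share of the tested members of each gene list that was called higher (red, to the right) or lower (grey, to the left) in EY against N, with the number tested in brackets. Dashed lines mark the shares over all 13555 genes, 9.31% higher and 9.5% lower.

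In 15 lists the share of tested members called lay between 12.5% and 27.3%, near the 18.8% of all genes. These were the lists of YAP targets, RB and E2F, p53 targets, partial EMT, proteases, EGF ligands, kallikreins, transcription factors, Notch, xenobiotic metabolism, immediate early, oncofetal, circadian, BMP and hyaluronan genes. Their counts are given for completeness and are no result about the list. The counts of the other lists are to be read beside the same 18.8%.

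The targeted gene was higher in both EY libraries. Yap1 (chr9:7931999-8004596, - strand) stood at 34.5 and 41.7 CPM in N and at 216 and 174 CPM in EY. The EY libraries exceeded both N libraries, with a log2 fold change of 2.35 (SE 0.37, edgeR adjusted p = 0.0119), and transcripts of the transgene and of the mouse gene were not told apart. Transcripts of E6 and E7 are not part of the mouse reference and were not analysed here. In the Hippo list 6 of 20 tested members rose and none fell, against 18.8% of all genes called, with a median log2 fold change of 0.09. Tead1, a DNA-binding partner of YAP, rose from 23.4 and 25.5 CPM to 56.5 and 68.7 CPM (log2 fold change 1.37, SE 0.24). Tead4, another partner, rose from 2.25 and 3.22 CPM to 11.8 and 16.5 CPM (log2 fold change 2.46, SE 0.42). Vgll3, a TEAD cofactor that competes with YAP for it, rose from 0.178 and 0.477 CPM to 5.28 and 7.06 CPM (log2 fold change 4.66, SE 0.71). The LATS regulator Wwc2 and the kinase gene Lats2, which lies in the YAP target list as well, also rose.

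YAP targets moved unevenly. Of 21 tested members 4 rose and 1 fell, with a median log2 fold change of 0.12 beside -0.05 over all genes. F3, tissue factor, which starts blood coagulation, stood at 10.4 and 9.65 CPM in N and at 199 and 80 CPM in EY (log2 fold change 3.77, SE 0.45, edgeR adjusted p = 0.00799). Amotl2, a junction scaffold that binds YAP, rose from 9.22 and 5.6 CPM to 48.3 and 61.9 CPM (log2 fold change 2.86, SE 0.44). Axl, a receptor tyrosine kinase for the ligand GAS6, rose from 6.6 and 6.43 CPM to 21.1 and 23.1 CPM (log2 fold change 1.77, SE 0.24). Lats2 rose from 6.99 and 6.43 CPM to 15.4 and 14.8 CPM (log2 fold change 1.16, SE 0.22). Fjx1, a secreted relative of the four-jointed kinase, fell from 120 and 114 CPM to 79.6 and 68.7 CPM (log2 fold change -0.66, SE 0.15). The matricellular genes Ccn1 and Ccn2, which are textbook YAP targets, did not pass. Ccn1 stood at 111 and 61.2 CPM in N and at 174 and 157 CPM in EY (log2 fold change 0.93, SE 0.32, edgeR adjusted p = 0.074). Ccn2 stood at 2.98 and 8.70 CPM in N and at 9.75 and 6.38 CPM in EY, where the groups overlapped (log2 fold change 0.47, SE 0.69, and -0.14 without N1).

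The promoter of Axl is shown because its letters hold the TEAD motif, CATTCC on either strand, which is printed in capitals (as GGAATG, its other strand) in the 250 bases before the start of the gene. The RefSeq promoter table of GRCm38.p6 was used, the window is chr7:25788734-25788983 on the - strand, and the motif begins 233 bases before the start.
Axl: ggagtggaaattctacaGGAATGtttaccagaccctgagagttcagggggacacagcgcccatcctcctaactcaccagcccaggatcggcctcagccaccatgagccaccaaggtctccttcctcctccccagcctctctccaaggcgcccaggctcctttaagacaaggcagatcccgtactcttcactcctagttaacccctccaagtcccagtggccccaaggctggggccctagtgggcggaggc
This motif was found in 2 of the 4 YAP targets that rose, Amotl2 and Axl, and in 14.4% of the 27025 genes of the promoter table. Among all tested YAP targets found there 5 of 14 hold it. A match is a description of the letters and is not a measured binding site.

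Some genes of DNA replication rose in EY. Of 42 tested members of the G1/S list 12 rose and none fell, with a median log2 fold change of 1.67. The share called was 28.6%, beside 18.8% of all genes and 27.3% of the p53 list. Mcm3 (chr1:20802968-20820312, - strand), a subunit of the replicative helicase, stood at 29.4 and 14.3 CPM in N and at 103 and 179 CPM in EY (log2 fold change 2.68, SE 0.54, edgeR adjusted p = 0.021). Ung, which removes uracil from DNA, rose from 8.2 and 3.81 CPM to 28 and 35.7 CPM (log2 fold change 2.36, SE 0.49). Mcm6, another helicase subunit, rose from 26.1 and 15 CPM to 65 and 94.3 CPM (log2 fold change 1.95, SE 0.46). The other helicase genes Mcm2, Mcm4, Mcm5 and Mcm7, the licensing factor Cdt1, the chromatin remodeller Hells, the histone chaperones Nasp and Chaf1b and the single-strand binding subunit Rpa2 made up the rest, with log2 fold changes between 1.38 and 2.23. With N1, N2 or EY2 left out none of the list's genes was called, and without EY1 20 were.

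In the G2/M list none of 40 members was called by edgeR, with a median of 0.61, which became -0.07 without EY2. DESeq2 called 2, and edgeR 18 without the filter on low counts and 9 with no cap on genes and UMIs per cell. Mki67, a marker of cycling nuclei, stood at 194 and 110 CPM in N and at 85.7 and 169 CPM in EY (log2 fold change -0.24, SE 0.48). Top2a, the topoisomerase of dividing cells, stood at 249.5 and 56 CPM in N and at 90.2 and 277 CPM in EY (log2 fold change 0.28, SE 0.93). For both genes the groups overlapped. Mki67 turned to 0.27 without N1 and to 0.17 without EY1, and Top2a to -0.40 without N2 and to -0.78 without EY2.

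Shares of cells were read after thinning each cell to 2000 UMIs. A UMI of any of 8 cycling genes was found in 34.8% of N1 cells (33.2 to 36.4%, the exact 95% interval by Clopper and Pearson) and in 31.1% of the N2 cells (26.7 to 35.8%). In EY1 the share was 56.8% (49.0 to 64.4%) and in EY2 76.9% (75.0 to 78.7%). Both EY libraries lay above both N libraries, and in Ptprc-positive cells, a comparison population, the shares were 27.2% and 14.8% in N and 12.6% and 31.6% in EY. Without thinning the shares of gated cells were 64.1% and 65.8% in N and 81.8% and 96% in EY. Intervals cover counting error only, and the shares were not tested. An exact two-sided permutation test of 2 against 2 libraries could not go below p = 0.33.

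The sequences of Mcm5 and Mcm6 are shown since these helicase genes rose and carry an E2F motif in the window. Capitals mark TTTCCCGC or TTTGGCGC on either strand, in RefSeq GRCm38.p6 windows of 250 bases before the start, at chr8:75109259-75109508 (+ strand) and chr1:128359706-128359955 (- strand).
Mcm5: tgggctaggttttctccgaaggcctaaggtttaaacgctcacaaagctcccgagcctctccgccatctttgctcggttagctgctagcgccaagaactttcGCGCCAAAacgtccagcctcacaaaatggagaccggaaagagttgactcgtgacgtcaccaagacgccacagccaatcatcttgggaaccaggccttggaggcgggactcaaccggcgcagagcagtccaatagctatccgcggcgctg
Mcm6: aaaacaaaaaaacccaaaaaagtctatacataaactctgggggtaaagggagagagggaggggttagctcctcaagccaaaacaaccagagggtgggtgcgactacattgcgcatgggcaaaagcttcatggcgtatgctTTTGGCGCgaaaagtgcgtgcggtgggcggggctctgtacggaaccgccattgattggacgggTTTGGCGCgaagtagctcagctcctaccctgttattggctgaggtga
Mcm5 holds 1 match and Mcm6 2. Of the risen members of the list found in the table, 4 of 11 hold the motif (Mcm5, Mcm6, Mcm7 and Hells), against 1.51% of all genes there. Among all tested members found there 8 of 30 hold it.

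The RB, E2F and cyclin list had 2 rises and 1 fall among 18 members. E2f3, an activating E2F, rose from 12.8 and 13.3 CPM to 26.8 and 33.5 CPM (log2 fold change 1.23, SE 0.23). Cdkn1c, the CDK inhibitor p57, rose from 5.25 and 6.08 CPM to 11.8 and 23.2 CPM. Cdkn2b, the CDK inhibitor p15, fell from 5.1 and 6.43 CPM to 1.63 and 2.3 CPM (log2 fold change -1.43, SE 0.33). Of 22 tested p53 targets 4 fell and 2 rose, with a median of 0.17. Trp53inp1, a stress-induced p53 cofactor, fell from 13.3 and 11.2 CPM to 3.25 and 2.04 CPM (log2 fold change -2.40, SE 0.34). Sesn1, a sestrin that restrains growth signalling, fell from 35.9 and 40.3 CPM to 16.7 and 10.1 CPM (log2 fold change -1.60, SE 0.29). The falls also took in Ddit4l and Ak1. Pmaip1, the death gene NOXA, rose from 10.5 and 5 CPM to 30.9 and 26.5 CPM, and Plk2, a kinase induced by stress, from 46.2 and 20.4 CPM to 77.6 and 198 CPM.

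Of 20 meiotic genes 8 passed the filter on low counts. A gene near 0 in N can pass it only through groups where it is high, which lifts the share and the median. Of the 8 tested members 6 rose (75% called, beside 18.8% of all genes), with a median log2 fold change of 4.08. Without the filter 18 were tested, 7 rose and 1 fell, with a median of 2.81. Zcwpw1, a reader of histone marks in meiotic recombination, stood at 1.54 and 1.31 CPM in N and at 20.7 and 34.6 CPM in EY (log2 fold change 4.28, SE 0.45, edgeR adjusted p = 0.00672). Syce2, a protein of the synaptonemal complex, rose from 12.1 and 6.79 CPM to 91.4 and 192 CPM (log2 fold change 3.88, SE 0.59). Stag3, a meiotic cohesin subunit, rose from 0.573 and 0.119 CPM to 11 and 16.5 CPM (log2 fold change 4.95, SE 0.53). Smc1b, its partner in that cohesin, rose from 0.138 and 0 CPM to 11.4 and 2.35 CPM, with EY1 above EY2. The synaptonemal proteins Sycp1 and Sycp3 rose as well, while Meiob, at 0.81 and 1.67 CPM in N and 0.813 and 0.652 CPM in EY, did not pass.

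Interferon-stimulated genes rose almost as a whole. Of 26 tested members 23 rose and none fell (88.5% called), with a median log2 fold change of 2.08. Isg15, a ubiquitin-like modifier, stood at 65.5 and 44.4 CPM in N and at 479 and 578 CPM in EY (log2 fold change 3.26, SE 0.40, edgeR adjusted p = 0.00827). Rsad2, the antiviral enzyme viperin, rose from 2.25 and 0.477 CPM to 39.4 and 61.4 CPM (log2 fold change 4.93, SE 0.63). Ptprc-positive cells of EY held 103 CPM of Rsad2, more than the gated cells. Bst2, tetherin, which holds virus particles at the membrane, rose from 33.6 and 18 CPM to 243 and 234 CPM (log2 fold change 3.19, SE 0.31). Smaller rises were seen in sensors and factors, such as Ifih1, an RNA sensor, from 14.8 and 12.4 CPM to 30.1 and 23.4 CPM, and Irf7, an interferon regulatory factor, from 10.2 and 14.3 CPM to 75.6 and 46.2 CPM. Some members, among them Ifit3 and Trim30a, were under 0.3 CPM in N. Reads of like copies of the Ifit and Oas genes may be split unevenly. In cells with no UMI of any pan-leukocyte marker 22 members were called, without N2 10, without EY2 2 and without N1 1, and in all of these fits each of the 26 members had a positive value.

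Antigen presentation genes rose more modestly. Of 14 tested members of the MHC class I list 8 rose and none fell, with a median log2 fold change of 0.93. H2-Q7 and H2-Q6, class I genes of near-identical sequence, stood at 55.3 and 26.6 CPM and at 6.3 and 4.41 CPM in N. In EY they stood at 165 and 216 CPM and at 29.3 and 33.3 CPM, with log2 fold changes of 2.21 (SE 0.33) and 2.52 (SE 0.28). The class I gene H2-K1, the peptide transporter gene Tap1, its tapasin partner Tapbp, the immunoproteasome genes Psmb8 and Psmb10 and the class I regulator Nlrc5 also rose. Their log2 fold changes ran from 0.74 to 1.67. B2m, the shared light chain, stood at 561 and 381 CPM in N and at 913 and 603 CPM in EY and did not pass.

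The promoters of Isg15 and Rsad2 are shown for the interferon-stimulated response element, searched as GAAA, any 2 bases and GAAA on both strands and printed in capitals. The windows are chr4:156200819-156201068 and chr12:26456453-26456702, both on the - strand, from RefSeq GRCm38.p6.
Isg15: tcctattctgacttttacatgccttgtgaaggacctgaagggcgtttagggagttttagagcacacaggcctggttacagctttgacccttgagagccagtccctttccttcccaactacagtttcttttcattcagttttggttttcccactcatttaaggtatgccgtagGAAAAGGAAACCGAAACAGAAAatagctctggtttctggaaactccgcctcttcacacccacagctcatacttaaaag
Rsad2: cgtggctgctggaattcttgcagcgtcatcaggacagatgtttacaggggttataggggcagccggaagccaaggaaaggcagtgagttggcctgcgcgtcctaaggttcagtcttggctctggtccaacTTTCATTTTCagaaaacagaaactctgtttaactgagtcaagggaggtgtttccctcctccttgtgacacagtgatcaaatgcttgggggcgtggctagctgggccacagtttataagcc
In Isg15 the capitals cover 3 overlapping matches. Of the risen members of the list found in the table, 8 of 18 hold the motif, against 3.46% of all genes there. Among all tested members found there 8 of 19 hold it, so the motif does not set the risen members apart.

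Of 46 cornified envelope genes 32 passed the filter on low counts. Of these 14 rose and none fell (43.8% called, beside 18.8% of all genes), with a median log2 fold change of 2.86. As in the meiotic list, a gene near 0 in N could pass that filter only through groups where it is high. This lifts the share and the median. Several late envelope genes had large values that did not pass. Besides Crct1 and the Sprr2 genes above, Sprr1b, a cross-linked envelope protein, rose from 5.02 and 15.1 CPM to 55.7 and 76.5 CPM (log2 fold change 2.81, SE 0.49). Tgm1, the transglutaminase that joins envelope proteins, rose from 23.8 and 38.5 CPM to 67.8 and 79.5 CPM (log2 fold change 1.26, SE 0.31). Lor, the main envelope protein of epidermis, stood at 7.17 and 8.46 CPM in N and at 6.5 and 8.99 CPM in EY and did not pass. Tgm3, another transglutaminase, stood at 54.6 and 28.9 CPM in N and at 13 and 2.86 CPM in EY (log2 fold change -2.86, SE 1.01, edgeR adjusted p = 0.081). In the kallikrein list 2 of 9 members rose, Klk12 and Klk10. Klk10, a secreted protease of the outer layers, rose from 67.6 and 95.7 CPM to 214 and 412 CPM (log2 fold change 1.95, SE 0.36). Spink5, the kallikrein inhibitor, stood at 85.4 and 54.3 CPM in N and at 185 and 174 CPM in EY, where the groups did not overlap but the test was not passed (edgeR adjusted p = 0.075).

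Keratins moved in opposite directions by class. Of 10 tested stress and simple keratins 5 rose and none fell, leaving the gate keratin Krt6a out of the count. Krt17, a keratin of injured and proliferating epithelium, stood at 1269 and 1411 CPM in N and at 5733 and 9122 CPM in EY (log2 fold change 2.47, SE 0.29, edgeR adjusted p = 0.00799). Krt16, induced with it in wounds, rose from 241 and 189 CPM to 501 and 646 CPM (log2 fold change 1.42, SE 0.40). Krt8 and Krt18, the keratin pair of simple epithelia, stood at 8 and 14.9 CPM and at 17.5 and 22.8 CPM in N. In EY they stood at 163 and 38 CPM and at 194 and 82.1 CPM, with log2 fold changes of 3.14 (SE 0.80) and 2.77 (SE 0.44). EY1 was the higher library for both, and without EY1 Krt8 no longer passed (log2 fold change 1.80, edgeR adjusted p = 0.08). Both are also on the gland list, whose other markers Psca and Wfdc18 were highest in N2, and without gland-like cells the log2 fold changes were 5.57 for Krt8 and 3.77 for Krt18. Krt6b rose as well.

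Of 20 suprabasal and papilla keratins listed 11 were tested. Of these 4 fell and none rose (36.4% called, beside 18.8% of all genes), with a median log2 fold change of -3.03. A gene near 0 in EY could pass the filter on low counts only through groups where it is high. This can enlarge the share and the median fall. Krt76, a keratin of oral suprabasal cells, stood at 14.9 and 16.3 CPM in N and at 0 and 0.0851 CPM in EY. The EY values are at the limit of counting, so no fold is given, and the edgeR adjusted p was 0.0076. Krt24, a keratin of differentiated cells, fell from 132 and 210 CPM to 15.8 and 1.73 CPM (log2 fold change -4.89, SE 0.90). Krt79 fell from 17.8 and 28 CPM to 3.66 and 0.255 CPM (log2 fold change -4.95, SE 1.13), and Krt1, a keratin of cornifying epidermis, from 4.33 and 3.93 CPM to 0.406 and 0.0851 CPM. Krt4, the mucosal partner of Krt13, stood at 1085 and 499 CPM in N and at 859 and 1272 CPM in EY and did not pass. The gate keratin Krt15 was found in 84.8% and 82.7% of thinned N cells and in 50.9% and 29.2% of thinned EY cells, which is a description because the gate used that gene.

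Of 18 tested basal progenitor genes 6 fell and none rose, beside 9.5% of all genes called lower, and 12 did not pass. The median was -0.55. Besides Igfbp5 and Sostdc1 these were factors of transcription, Bcl11b from 133 and 118 CPM to 60.1 and 40.6 CPM, Nfix from 355 and 307 CPM to 150 and 110 CPM, Nfib, and Sox2, which marks taste and tongue progenitors, from 119 and 94.3 CPM to 62.2 and 48.9 CPM. Their log2 fold changes lay between -0.91 and -1.36. All EY values were below all N values for these genes. Trp63, the master factor of stratified epithelia, stood at 212 and 358 CPM in N and at 143 and 63.3 CPM in EY and missed the threshold (log2 fold change -1.49, SE 0.44, edgeR adjusted p = 0.053).

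In the list of epithelial and oral transcription factors 8 of 34 fell and 1 rose, with a median of -0.45. Tfap2c, an AP-2 factor of keratinocytes, stood at 52 and 47.8 CPM in N and at 13.4 and 11.4 CPM in EY (log2 fold change -2.04, SE 0.20, edgeR adjusted p = 0.00672). Pax9, a factor that shapes tongue papillae, fell from 223 and 186 CPM to 97.5 and 58 CPM (log2 fold change -1.42, SE 0.25). Msx2, a homeobox factor of oral tissue, fell from 9.01 and 7.98 CPM to 0.813 and 0.113 CPM (log2 fold change -5.56, SE 0.59). Barx2, Lhx6, Grhl2, Etv5 and Msx1 fell too. The list's rise was Hmga2, a chromatin protein of embryonic cells, from 0.178 and 0.357 CPM to 4.06 and 1.08 CPM.

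Adhesion and junction genes were split. Among 22 adhesion genes 6 fell and 1 rose (31.8% called, beside 18.8% of all genes). Itga2, the collagen-binding integrin chain, fell from 14 and 16.3 CPM to 4.88 and 1.87 CPM (log2 fold change -2.52, SE 0.42). Col4a5, a basement membrane collagen chain, fell from 7.66 and 9.41 CPM to 2.03 and 0.199 CPM (log2 fold change -4.34, SE 0.84), and its neighbour Col4a6, Egfl6 and the matrix protein Npnt fell with it. Plec, the plakin that anchors keratin filaments, fell from 234 and 293 CPM to 193 and 167 CPM (log2 fold change -0.55, SE 0.16). The rise was Pkp2, a desmosomal plakophilin, from 0.336 and 0.477 CPM to 2.03 and 9.16 CPM. The hemidesmosome genes Itga6 and Itgb4 stood at 192 and 266 CPM and at 144 and 199 CPM in N, and at 200.3 and 137 CPM and 142 and 129 CPM in EY, and did not pass.

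Tight junction and polarity genes had 9 rises and 2 falls among 23 (47.8% called, beside 18.8% of all genes), with a median of 0.51. Cldn4, a claudin that seals epithelia, rose from 10.8 and 6.67 CPM to 71.9 and 84.7 CPM (log2 fold change 3.13, SE 0.53, edgeR adjusted p = 0.0146). Cldn1, the main claudin of the skin barrier, rose from 1.88 and 2.14 CPM to 37.4 and 15.1 CPM (log2 fold change 3.66, SE 0.75). The scaffolds Tjp1 and Cgn, the claudins Cldn3 and Cldn7, the polarity genes Crb3 and Pard6b, and Cdh1, E-cadherin, rose as well. The falls were both polarity genes. Pard3 went from 66 and 57.5 CPM to 42.7 and 29 CPM (log2 fold change -0.82, SE 0.20) and Pard6g from 105 and 105 CPM to 71.9 and 54.8 CPM (log2 fold change -0.74, SE 0.16).

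Of 35 tested Wnt pathway genes 11 fell and 2 rose (37.1% called, beside 18.8% of all genes), with a median of -1.33. Receptors and factors fell together, Tcf7l1, a TCF factor of progenitors, from 15.3 and 14.5 CPM to 7.72 and 4.77 CPM (log2 fold change -1.39, SE 0.25) and Tcf7l2, another, from 36.9 and 41.2 CPM to 21.5 and 8.2 CPM (log2 fold change -1.56, SE 0.40). The frizzled receptors Fzd2 and Fzd7 and the R-spondin receptor Lgr4 belonged to this group. Secreted inhibitors fell also. Apcdd1, which binds Wnt ligands, went from 67.5 and 93.3 CPM to 19.1 and 11 CPM (log2 fold change -2.52, SE 0.30, edgeR adjusted p = 0.00799). Dkk3, a dickkopf relative, fell from 39.8 and 49.3 CPM to 11.8 and 3.15 CPM (log2 fold change -2.97, SE 0.56), and Notum and Sfrp1 fell as well. Wnt4, a ligand, rose from 261 and 324 CPM to 465 and 491 CPM (log2 fold change 0.71, SE 0.16), and the dickkopf receptor gene Kremen2 rose. Lef1, at 47.5 and 52.9 CPM in N and 16.7 and 1.93 CPM in EY, missed the threshold (edgeR adjusted p = 0.056). With N1 or EY2 left out no member of the list was called.

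In the Notch list 2 of 13 fell and 1 rose (23.1% called, beside 18.8% of all genes). Notch1, the receptor that starts suprabasal differentiation, stood at 121 and 124 CPM in N and at 51.2 and 49.5 CPM in EY (log2 fold change -1.29, SE 0.17, edgeR adjusted p = 0.00899). Maml2, a coactivator of Notch, fell as well. Rfng, a glycosyltransferase that modifies Notch, rose from 13.8 and 12.5 CPM to 18.7 and 23.8 CPM (log2 fold change 0.71, SE 0.20), a call made in only 6 of 21 alternatives. In the BMP, TGF-beta and IGF list 5 of 25 fell and 1 rose, with a median of -0.86. Bambi, a decoy receptor, fell from 25.6 and 30.3 CPM to 8.53 and 2.21 CPM (log2 fold change -2.82, SE 0.66), Id4, a target of BMP signals, from 26.1 and 21.1 CPM to 8.53 and 2.38 CPM (log2 fold change -2.54, SE 0.55), and Smad6, an inhibitory SMAD, from 5.14 and 5.24 CPM to 1.22 and 0.34 CPM (log2 fold change -3.48, SE 0.50). The growth factor receptor Fgfr2 and Id2 fell too, and the activin subunit gene Inhba rose. Of 8 hyaluronan genes 2 fell, among them Has3, a synthase, from 17.9 and 30.7 CPM to 6.91 and 2.24 CPM (log2 fold change -2.80, SE 0.55), and Cd44, the receptor, stood at 175 and 172 CPM in N and at 196 and 183 CPM in EY and did not pass.

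Of 20 immediate early genes 4 fell and 1 rose (25% called, beside 18.8% of all genes), with a median of -0.88. Fos, a subunit of AP-1, stood at 2256 and 1374 CPM in N and at 648 and 534 CPM in EY (log2 fold change -1.62, SE 0.41). Fosb, its relative, fell from 893 and 578 CPM to 278 and 191 CPM (log2 fold change -1.66, SE 0.34). Egr1, a zinc finger factor induced within minutes of a stimulus, fell from 678 and 462 CPM to 210 and 158 CPM (log2 fold change -1.64, SE 0.33), and Nr4a1, an orphan nuclear receptor, from 119 and 62.3 CPM to 28.8 and 17.6 CPM (log2 fold change -2.03, SE 0.48). Ier3 was the rise. Both EY libraries were below both N libraries for each of the 4 falls.

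Genes of glycolysis and of the response to low oxygen rose. Of 15 tested glycolysis genes 12 rose and none fell (80% called), with a median log2 fold change of 1.10, and of 20 hypoxia genes 9 rose and none fell, with a median of 1.12. Pgk1, a glycolytic kinase, stood at 201 and 175 CPM in N and at 558 and 791 CPM in EY (log2 fold change 1.84, SE 0.27, edgeR adjusted p = 0.011). Ldha, which makes lactate, rose from 468 and 472 CPM to 1008 and 1609 CPM (log2 fold change 1.48, SE 0.29). Slc2a1, the glucose transporter GLUT1, rose from 61 and 68.3 CPM to 134 and 140 CPM (log2 fold change 1.09, SE 0.20). Egln3, a prolyl hydroxylase that marks HIF for breakdown, rose from 9.78 and 7.74 CPM to 119 and 108 CPM (log2 fold change 3.67, SE 0.51). Ndrg1, a stress-response protein, rose from 28.8 and 42.1 CPM to 184 and 160 CPM (log2 fold change 2.29, SE 0.26). Vegfa, the vascular growth factor, went from 6.66 and 3.93 CPM to 17.9 and 24.6 CPM, and the carbonic anhydrase Car9 from 0.514 and 0.119 CPM to 3.25 and 4 CPM.

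The promoters of Egln3 and Pgk1 are shown for the core of the hypoxia response element, ACGTG on either strand, in capitals, in RefSeq GRCm38.p6 windows of 250 bases at chr12:54203875-54204124 (- strand) and chrX:106186850-106187099 (+ strand).
Egln3: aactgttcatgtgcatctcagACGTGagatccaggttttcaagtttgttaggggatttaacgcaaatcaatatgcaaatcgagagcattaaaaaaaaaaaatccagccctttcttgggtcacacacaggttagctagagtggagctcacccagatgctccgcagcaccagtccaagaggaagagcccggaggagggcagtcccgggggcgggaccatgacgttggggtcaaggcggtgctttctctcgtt
Pgk1: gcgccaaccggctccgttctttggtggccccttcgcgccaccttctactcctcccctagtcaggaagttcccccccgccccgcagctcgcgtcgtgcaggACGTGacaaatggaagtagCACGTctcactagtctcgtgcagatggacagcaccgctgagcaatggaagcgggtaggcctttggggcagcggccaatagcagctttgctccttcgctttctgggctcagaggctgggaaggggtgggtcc
Of the risen members found in the table, 5 of 7 hypoxia genes and 7 of 12 glycolysis genes hold this short motif, against 18.5% of all genes there. Among all tested members found there the counts are 10 of 15 and 8 of 15, so the motif does not set the risen members apart.

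Sterol and growth metabolism rose as well. Of 21 cholesterol synthesis genes 15 rose and none fell, with a median of 1.54. Mvd, which makes the isoprene unit, rose from 6.22 and 4.29 CPM to 12.2 and 34.2 CPM (log2 fold change 2.18, SE 0.50), and Fdps, farnesyl diphosphate synthase, from 130 and 83.3 CPM to 260 and 435 CPM (log2 fold change 1.70, SE 0.35). EY2 was above EY1 for both. Of 19 MYC and ribosome biogenesis genes 14 rose and none fell. Odc1, the first enzyme of polyamine synthesis, rose from 42.7 and 55.6 CPM to 147 and 163 CPM (log2 fold change 1.66, SE 0.27), and Srm, spermidine synthase, from 69.1 and 67.3 CPM to 124 and 257 CPM (log2 fold change 1.49, SE 0.30). Among cells with no cycling UMI no cholesterol gene and 1 of these biogenesis genes was called.

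Amino acid genes of the ATF4 list had 7 rises among 21 (33.3% called, beside 18.8% of all genes), with a median of 0.79. Slc1a5, a glutamine transporter, rose from 9.36 and 7.86 CPM to 26 and 33.6 CPM (log2 fold change 1.80, SE 0.20), and Shmt2, a mitochondrial serine enzyme, from 35.8 and 31.2 CPM to 76.4 and 140 CPM (log2 fold change 1.71, SE 0.39). In the list of xenobiotic, NRF2 and retinoid genes 8 of 34 fell and 1 rose. Gstm1, a glutathione transferase, fell from 305 and 270 CPM to 94.3 and 21 CPM (log2 fold change -2.39, SE 0.68), Gclc, the enzyme that starts glutathione synthesis, from 66.7 and 38.7 CPM to 22.3 and 23 CPM (log2 fold change -1.22, SE 0.29), and Nqo1, a quinone reductase, from 89.7 and 63.4 CPM to 41.8 and 26.9 CPM. The rise was Hmox1, which degrades heme, from 5.04 and 2.62 CPM to 34.1 and 42.2 CPM (log2 fold change 3.25, SE 0.38, edgeR adjusted p = 0.00784). Ptprc-positive cells of EY held 160 CPM of Hmox1, more than the gated cells.

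Secreted defence genes gave some of the largest values, in cells that also held more leukocyte transcripts. Of 25 antimicrobial and acute phase genes 18 passed the filter on low counts. Of these 10 rose and 1, the cystatin relative Stfa3, fell, with a median log2 fold change of 4.78. Here too a gene near 0 in N could pass the filter only through groups where it is high, which lifts the share and the median. Defb1, an epithelial defensin, stood at 1.76 and 3.22 CPM in N and at 65.8 and 102 CPM in EY (log2 fold change 5.22, SE 0.55, edgeR adjusted p = 0.00672), and Ptprc-positive cells of EY held 13.6 CPM. S100a8 and S100a9, the calprotectin pair, stood at 1.82 and 11 CPM and at 2.25 and 11.1 CPM in N. In EY they stood at 1145 and 389 CPM and at 903 and 233 CPM, with log2 fold changes of 7.08 (SE 1.25) and 6.57 (SE 1.15). Ptprc-positive cells of EY held 58258 CPM of S100a8. In cells with no UMI of any of 9 pan-leukocyte genes (Ptprc, Cd52, Coro1a, Laptm5, Tyrobp, Fcer1g, Cd53, Lcp1 and Srgn), a list without the neutrophil markers, 55 cells in EY1 and 1410 in EY2, S100a8 was called at 6.09 and S100a9 at 5.34 on the log2 scale, and 11 members of the list rose. How much of the S100a8 signal was free RNA of neutrophils was not tested.

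Of 20 attractants and cytokines 7 rose and 1 fell (40% called, beside 18.8% of all genes), with a median of 1.69. Cxcl16, a membrane-bound chemokine, rose from 12.6 and 14.5 CPM to 82.5 and 129 CPM (log2 fold change 2.99, SE 0.32, edgeR adjusted p = 0.007). Tslp, an epithelial alarm cytokine, rose from 3.32 and 5.12 CPM to 59.3 and 30.4 CPM (log2 fold change 3.43, SE 0.45). The neutrophil chemokine gene Cxcl2 rose from 9.74 and 9.05 CPM to 129 and 44.2 CPM, beside 11068 CPM in Ptprc-positive cells of EY, and Csf3, the granulocyte growth factor, from 0.198 and 0 CPM to 2.84 and 9.59 CPM. Il1rn and Il23a rose too. Cxcl14, a chemokine of resting epithelium, fell from 34 and 37.9 CPM to 10.6 and 4.11 CPM (log2 fold change -2.56, SE 0.60). Keratin-low cells held 192 CPM of Cxcl14 in N and 21.4 CPM in EY. Cxcl1, at 39.4 and 17.5 CPM in N and 53.6 and 59.3 CPM in EY, did not pass.

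Growth factor and invasion genes were called in smaller part. In the EGF receptor family and its ligands 3 of 13 rose, all of them ligands. Epgn, epigen, rose from 4.15 and 2.26 CPM to 33.7 and 50.2 CPM (log2 fold change 3.65, SE 0.64), Ereg, epiregulin, from 0.079 and 0 CPM to 3.25 and 9.11 CPM, and Nrg1, neuregulin, from 31.6 and 32.2 CPM to 49.2 and 89.2 CPM (log2 fold change 1.14, SE 0.32). Nrg1 was called in 9 of 21 alternatives and not in cells without pan-leukocyte marker UMIs (edgeR adjusted p = 0.105) or in basal cells (edgeR adjusted p = 0.094), and ran from 0.62 to 1.51 without 1 library. The receptor genes Egfr and Erbb2 stood at 44.3 and 47.1 CPM and at 19.2 and 22.9 CPM in N, and at 54.8 and 46.5 CPM and 17.9 and 17.8 CPM in EY, and did not pass. Of 31 partial EMT and invasion genes 7 rose and 1 fell, with a median of 0.44.

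Lgals1 (chr15:78926725-78930465, + strand), the secreted lectin galectin-1, stood at 19.4 and 16.4 CPM in N and at 163 and 181 CPM in EY (log2 fold change 3.26, SE 0.19, edgeR adjusted p = 0.00421). Ptprc-positive cells held 1852 CPM in N and 649 CPM in EY, and in cells without a pan-leukocyte marker UMI the log2 fold change was 3.97. Pdpn, podoplanin, a membrane protein of invading fronts, rose from 8.14 and 12.4 CPM to 50.8 and 98.1 CPM (log2 fold change 2.92, SE 0.54). Serpinh1, a collagen chaperone, fell from 71.2 and 75.3 CPM to 24.8 and 24.2 CPM (log2 fold change -1.58, SE 0.22). Keratin-low cells held 376 CPM of Serpinh1 in N and 72.8 CPM in EY. The cytoskeletal genes Actn1 and Tpm4, the TWEAK receptor gene Tnfrsf12a, Fhl2 and Inhba were the other rises. Vim, vimentin, stood at 6.74 and 9.89 CPM in N and at 36.2 and 8.14 CPM in EY and did not pass.

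Of 16 proteases and inhibitors 1 rose and 1 fell. Plaur, the urokinase receptor, rose from 2.51 and 2.14 CPM to 29.3 and 11.7 CPM (log2 fold change 3.04, SE 0.68), beside 493 CPM in Ptprc-positive cells of EY. Timp2, a metalloproteinase inhibitor, fell from 3.97 and 10.4 CPM to 2.44 and 1.05 CPM (log2 fold change -2.35, SE 0.60). Mmp9, a gelatinase, stood at 0.0593 and 0 CPM in N and at 3.66 and 0.652 CPM in EY and did not pass. Of 10 oncofetal genes 2 rose, Igf2bp1 and Lin28b, an RNA-binding protein of early development, which stood at 0.0198 and 0 CPM in N and at 1.22 and 0.738 CPM in EY. These levels of Lin28b are near the limit of counting, and it was called in 13 of the 17 alternatives in which it was tested. In the circadian list 3 of 17 fell and 1 rose, among the falls Clock, a core activator of the rhythm, from 69.8 and 82.2 CPM to 57.3 and 46.4 CPM (log2 fold change -0.56, SE 0.16).

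**Figure D3:**
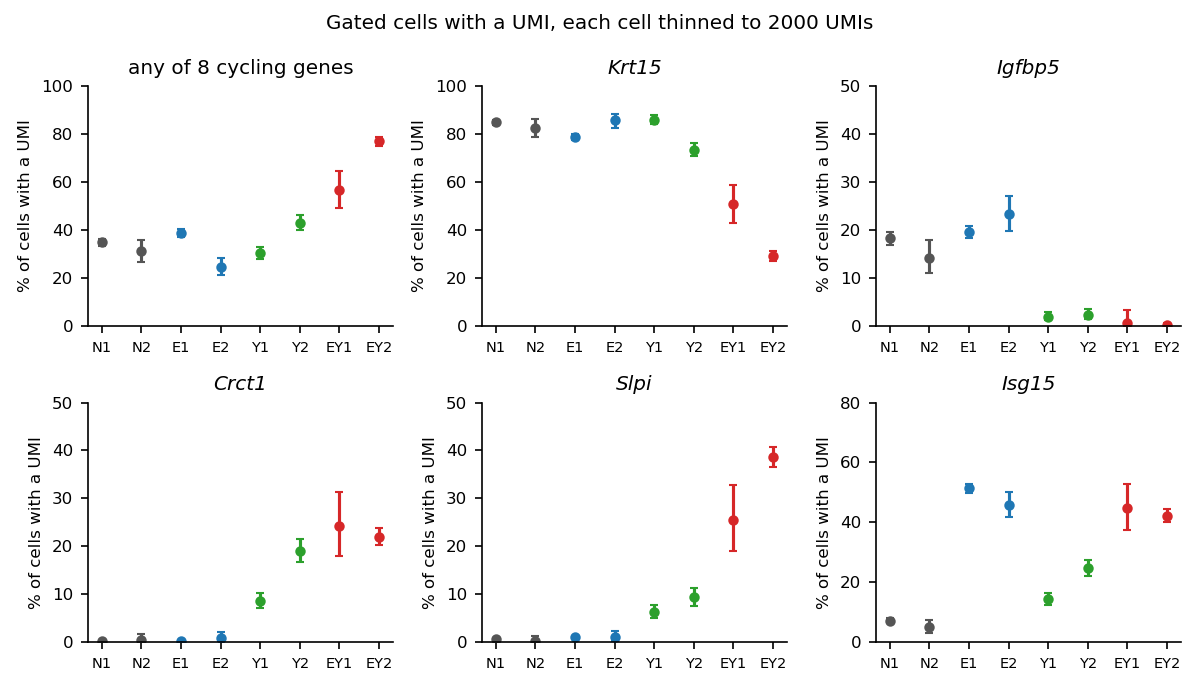
Share of gated cells with at least 1 UMI of a gene (or of any of 8 cycling genes) after each cell was thinned to 2000 UMIs, for each of the 8 libraries. Bars are exact Clopper-Pearson 95% intervals and cover counting error only; cycling UMIs, Crct1, Slpi and Isg15 were found in more EY than N cells, and Krt15 and Igfbp5 in fewer.

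Shares of thinned cells showed how widely some of these genes were found. Crct1 UMIs were found in 0.203% of N1 cells (0.0817 to 0.418%) and 0.482% of N2 cells, and in 24.3% of EY1 cells (18.0 to 31.4%) and 22.1% of EY2 cells (20.3 to 23.9%). In Ptprc-positive cells of EY, a population that should lack the gene, the shares were 4.10% and 10.7%, with medians of 10800.5 and 5100 UMIs per cell before thinning. Il24 UMIs were found in 9.47% (5.51 to 14.9%) and 5.53% (4.57 to 6.61%) of EY cells, against 0.833% and 1.68% of Ptprc-positive cells and 0.0290% and 0.241% of gated N cells. Igfbp5 UMIs were found in 18.2% and 14.2% of N cells and in 0.592% and 0.197% of EY cells. Slpi UMIs were found in 25.4% and 38.6% of EY cells and in 56% and 53.4% of Ptprc-positive cells, so that its share in gated cells is at or below that background. Without thinning the gated EY shares were 40% and 47.6% for Crct1, 18.2% and 21.3% for Il24 and 1.76% and 0.444% for Igfbp5.

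**Figure D4:**
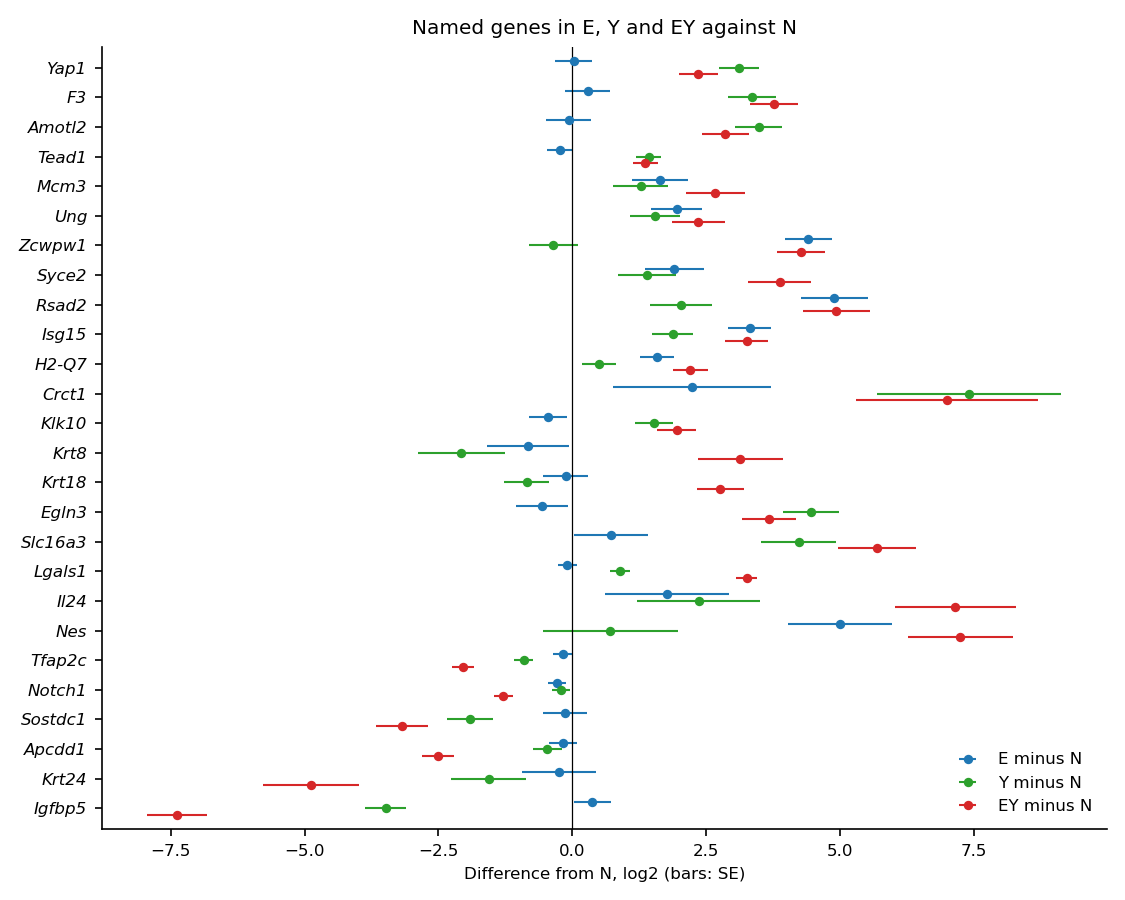
Differences from N on the log2 scale for 26 named genes in E, Y and EY, with SE as bars. The 3 differences of a gene share the N libraries; for Yap1 the Y and EY points lie right of 0 and the E point at 0.02, and for Zcwpw1 the E and EY points lie right and the Y point at -0.35.

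Values of E and Y stand beside those of EY with the caution that all were measured against the same 2 N libraries. By edgeR 33 genes (0.243%) were called in E and 62 (0.457%) in Y, each with 2 libraries. For Zcwpw1 the log2 difference from N was 4.41 in E, -0.35 in Y and 4.28 in EY, and for Rsad2 it was 4.90, 2.03 and 4.93. For F3 it was 0.29 in E, 3.36 in Y and 3.77 in EY, and for Egln3 -0.57, 4.46 and 3.67. For Igfbp5 it was 0.37 in E, -3.49 in Y and -7.38 in EY, and for Lgals1 -0.09, 0.89 and 3.26. In the next pair the EY value lay beyond both others. For Krt18 it was -0.12 in E, -0.85 in Y and 2.77 in EY, and for Notch1 -0.28, -0.22 and -1.29. 

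Whether EY differed from the sum of E and Y was tested as an interaction term. By edgeR 0 genes (0%) were called at an adjusted p under 0.05, 1562 (11.5%) had an unadjusted p under 0.05, and DESeq2 called 89. Lgals1 had the lowest p of the named genes, 2.46 above the sum on the log2 scale (SE 0.26, unadjusted p = 1.77e-05, edgeR adjusted p = 0.231). Igfbp5 was below it (log2 interaction -4.26, SE 0.65, edgeR adjusted p = 0.241), and Krt18 3.74 above (SE 0.60, edgeR adjusted p = 0.271). Without EY1 30 genes were called.

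**Figure D5:**
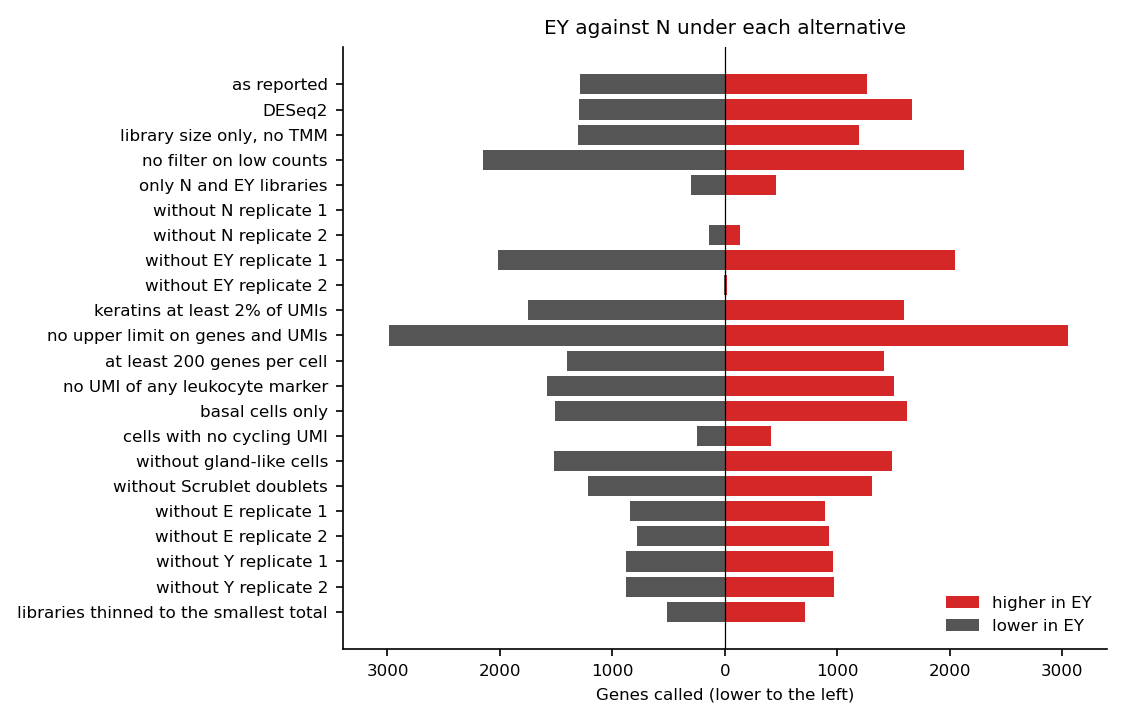
Genes called higher (red, to the right) and lower (grey, to the left) in EY against N under the reported fit and each alternative. The count falls to 3 and 2 without N1 and to 21 and 4 without EY2, and rises to 3052 and 2990 with no upper limit on genes and UMIs.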

How the data were processed

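The authors deposited, for each library, a filtered matrix of UMI counts per gene and cell, made with Cell Ranger 5.0.0 on mm10. The labels name 10x 3′ version 2 chemistry and the study's methods version 3.1. From these counts the gated epithelial cells of each of the 8 libraries (2 per group) were summed per gene, the 13555 genes passing filterByExpr were scaled by TMM, and edgeR 4.0.16 quasi-likelihood tests (limma 3.58.1, R 4.3.3) were fitted with 1 mean per group over all 8 libraries. The contrasts were EY minus N and EY minus E minus Y plus N, with Benjamini-Hochberg adjustment over all genes and calls at an adjusted p under 0.05. CPM in gated cells was taken on the summed counts with TMM-scaled library sizes. CPM in Ptprc-positive and in keratin-low cells, each the mean of a group's libraries, was taken on their own totals without TMM. The biological coefficient of variation was 0.245, with 4 residual degrees of freedom. Totals over the tested genes ran from 2453463 UMIs in EY1 to 49802143 in N1, so that EY1 has the largest counting error.

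Members and lists were chosen with earlier results of these data known. Genes were named by a rule: the 12 largest rises and falls among the calls whose higher group averaged 20 CPM or more, with no overlap between the groups' libraries, and a level in Ptprc-positive cells of the higher group at most 5 times that in gated cells, leaving out sex-linked markers, mitochondrial genes, the 5 gate keratins and Ptprc. Yap1 and up to 2 called members each way of each of 35 lists were added under the same limits, and other members were named after their values were seen. The rule gave 81 genes, of which 2 are not reported here. The gate keratins were left out of list counts but not of counts over all genes. Shares of cells were taken after thinning each cell to 2000 UMIs (seed 1), which left out 2 of the gated N and EY cells. Doublets were kept in the reported fit, and Scrublet (scanpy 1.11.5) marked 0.014% to 2.08% of cells per library. It marked under 0.5% in E1, E2 and EY1, so that doublets there were probably missed.

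On simulated counts of 13239 genes, with 99 genes changed at each size, EY against N recovered 11.1% of 2-fold and 50.5% of 4-fold changes with 5 false calls. Alternatives were DESeq2 1.42.0, no TMM, no filter, N and EY alone, each library left out, and other gates. Promoter windows came from the RefSeq table of GRCm38.p6. Coordinates of genes are those of the GENCODE annotation of GRCm38, in which 32158 of 32285 gene IDs were found.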

Additional observations from a re-analysis of the deposited data

How the results depend on the processing

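Of the 2550 genes called in EY against N, 2496 kept their sign under every alternative in which they were tested, and the 81 genes named by rule gave 1373 of 1701 comparisons with the same call, 328 with the call lost and 0 with the sign turned. Leaving out 1 library could hardly turn these signs, since nearly all called genes, and all genes named by rule, had no overlap between the groups. Only Igfbp5 was called under all 21. Counts of calls moved by less than 1.5 times with DESeq2, without TMM, with keratins at 2% of UMIs, with at least 200 genes per cell, without pan-leukocyte marker UMIs, in basal cells, without gland-like cells and without Scrublet doublets. They moved to 4273 (2124 higher, 2149 lower) without the filter on low counts, to 753 (456 and 297) with N and EY alone, to 6042 (3052 and 2990) with no cap on genes or UMIs per cell, to 655 (411 and 244) in cells with no cycling UMI and to 1223 (712 and 511) in libraries thinned to the smallest total. With 1 library left out the count ran from 5 (3 higher, 2 lower, without N1) to 4061 (2046 higher, 2015 lower, without EY1). It was 25 without EY2 and 271 without N2, and the falls numbered 842 without E1 and 782 without E2.

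For EY beyond the sum of E and Y, 0 genes were called by edgeR, 89 by DESeq2, 672 without the filter, 20 without upper limits, 1 in basal cells and 1 in cells with no cycling UMI. With 1 library left out the count ran from 0 to 30 (30 without EY1, 1 without N2 and 1 without Y1). With 1 library left out the log2 fold change ran from -0.14 (without N1) to 1.38 for Ccn2, from -0.84 to 0.27 for Mki67 (positive without N1 and, at 0.17, without EY1) and from -0.78 to 1.77 for Top2a (negative without EY2 and, at -0.40, without N2), none of them called. The cause of these changes was not tested. Leaving out E or Y libraries, thinning libraries and recounting the lists were chosen after seeing the data. No paired analysis was possible because the labels give animal numbers and no replicate number shared between groups. The depth of EY1, with 170 cells, limits what its low genes can show.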

Other observations

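Dcn, which encodes the matrix proteoglycan decorin, was the largest part of the fibroblast marker sum and stood at 1082 and 1274 CPM in gated cells of N and at 251 and 28.4 CPM in those of EY. The groups did not overlap, and the difference missed the threshold (log2 fold change -3.11, SE 0.91, edgeR adjusted p = 0.051). It passed without EY1 (log2 fold change -5.35) and in cells with no UMI of any pan-leukocyte marker (log2 fold change -3.59, edgeR adjusted p = 0.014). The fibroblast collagens Col1a1 and Col3a1 were low in the same cells.

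Of 17 circadian genes 4 were called (23.5%, beside 18.8% of all genes tested), which is no result about the list. Per2 and Npas2 fell, and Ciart, a repressor of the clock, rose, with log2 fold changes of -1.99, -1.67 and 3.51.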
